A study of Mus musculus with 32 samples.

Results

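The 10 genes described here are Slc2a1, Slc2a3, Hk2, Tpi1, Pgk1, Pgam1, Eno1, Ldha, Pdk1 and Bnip3, which carry glucose into the cell, break it down or belong to the response to low oxygen. They were chosen by name, with earlier results of these data known. All 10 were found among the 38201 genes of both the whole-cell and the cytoplasmic gene table. P19 cells, a mouse embryonal carcinoma line whose cells resemble those of the early embryo, were transfected with endoribonuclease-prepared short interfering RNA (esiRNA) against SRSF1, SRSF2, SRSF3, SRSF4, SRSF5, SRSF6 or SRSF7, and control cells received esiRNA against GFP, which the cells do not make. After 36 h, polyadenylated RNA was sequenced from the whole cell and from the cytoplasm, in 2 libraries per group that the labels name A and B, which gave 16 libraries per fraction and 32 in all. The study asked which transcripts depend on individual SR proteins for their level and for their export to the cytoplasm. All groups are of 1 established cell line with an acute and partial knockdown: the targeted transcript averaged 48.8 to 68.7% of its GFP level in the whole cell and 37.8 to 77.0% in the cytoplasm. The study's methods describe the replicates as biological, and p-values measure the spread between these libraries.

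SR proteins bind pre-mRNA through RNA recognition motifs, guide splicing and 3′ end choice, and some of them act as adaptors that bring the export receptor NXF1 to mRNA. Glycolysis splits glucose into pyruvate, and it is run at a high rate by pluripotent and tumour cells, which turn much of the pyruvate into lactate. When oxygen is low, the hypoxia-inducible factors (HIFs) bind short motifs near glucose transporter and glycolytic enzyme genes and raise their transcription. The members stand at successive steps of that programme. Slc2a1 and Slc2a3 code the glucose transporters GLUT1 and GLUT3. Hk2 codes the hexokinase that traps glucose as its phosphate, and Tpi1, Pgk1, Pgam1 and Eno1 code enzymes of the lower pathway. Ldha codes the lactate dehydrogenase subunit that favours lactate, Pdk1 codes a kinase that shuts pyruvate out of the mitochondrial oxidation route, and Bnip3 codes a mitochondrial protein that marks mitochondria for removal by autophagy.

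The core of the DNA element that HIF dimers recognise reads ACGTG or GCGTG. RefSeq promoter windows on GRCm38.p6, from 250 bases before to 50 bases after each annotated start site, were matched for 9 of the 10 members by symbol, with 13 windows in all, and Slc2a3 was the member without one. Either pentamer, on either strand, occurred in 11 of the 13 windows, against 43.8% of all 32851 RefSeq promoter windows of the same length. Some Eno1 windows overlap and hold the same matches. By gene, 8 of the 9 members had a match (Tpi1 had neither). Eno1, Ldha and Pdk1 have more than 1 window each, so the share per window is no background for the count of members. ACGTG alone was in 19.6% of all windows, and GCGTG alone in 32.4%. The palindrome CACGTG, which holds ACGTG on both strands and is therefore counted as 2 overlapping matches, was in 7.15% of all windows and in those of Ldha and Bnip3. For each member whose best stretch of 30 bases upstream of a start site held at least 2 matches, that 1 stretch is shown, because HIF target genes are known for this element. Ldha has a further CACGTG farther upstream in the same window, which is not shown. Capitals mark ACGTG or GCGTG read on either strand (CACGT or CACGC when read from the other strand). A match describes the letters of the window and says nothing about binding.
Bnip3: ggcgCACGCgccgCACGTGccaCACGCtcc
Ldha: agcctaCACGTGggttcccgCACGTccgct
Eno1: tCACGCtcttctattggagtgatggCACGC
Slc2a1: CACGCctctcagagtcccgccccggACGTG
Pgk1: aggACGTGacaaatggaagtagCACGTctc
The Bnip3 stretch lay on the minus strand at chr7:138909598-138909627, 121 to 92 bases before the start site, and held 4 matches. The Ldha stretch was at chr7:46845750-46845779, 54 to 25 bases before the start site, with 3 matches. The other 3 stretches lay on the plus strand and held 2 matches each, counted on either strand: Eno1 at chr4:150237110-150237139, Slc2a1 at chr4:119108684-119108713 and Pgk1 at chrX:106186947-106186976.

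Gene values were the authors' scaled reads, which are estimated reads per gene divided by 1 factor per library, and the 2 fractions were scaled separately. Library sums ran between 29596616 and 32831667 scaled reads in the whole cell and between 32128467 and 38371995 in the cytoplasm. The exon-bin tables of the same libraries held 38874542 to 59470730 and 41417374 to 72741730 reads, and the lowest value of any member in any library was 911 scaled reads, for Pdk1. P19 pluripotency markers were present in all libraries, with a whole-cell sum of 48901 to 72248 scaled reads over 7 genes. Pancreatic acinar markers, which code digestive enzymes, summed to 374 to 501 scaled reads in 7 of the 8 cytoplasmic A libraries, the GFP library included, to 23.2 in SRSF2 A, and to 6.95 to 16.9 in the 8 cytoplasmic B libraries. Their whole-cell sums were 3.79 to 10.6. The letter was a block in each test, as planned for these genes, and differences are also given within each letter.

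Length-corrected levels place the 10 genes over a wide range in GFP cells. In the authors' pooled FPKM for the whole cell, Eno1 was highest at 1130, followed by Ldha at 578, Pgk1 at 428, Tpi1 at 409.6, Slc2a3 at 262 and Pgam1 at 166. Bnip3 with 77.5 and Slc2a1 with 73.5, and Pdk1 with 38.6 and Hk2 with 37.7, were neighbours within a few percent, and these pooled values carry no replicate error by which to order them. In the cytoplasm the order began with Eno1 at 1932 FPKM, Ldha at 1203, Tpi1 at 831 and Pgk1 at 744, and ended with Hk2 at 39.3 and Pdk1 at 20.8. Between them stood Pgam1 at 373, Slc2a3 at 162, Slc2a1 at 74.8 and Bnip3 at 65.6 FPKM, so Slc2a3 ranked below Pgam1 in the cytoplasm and above it in the whole cell.

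**Figure D1:**
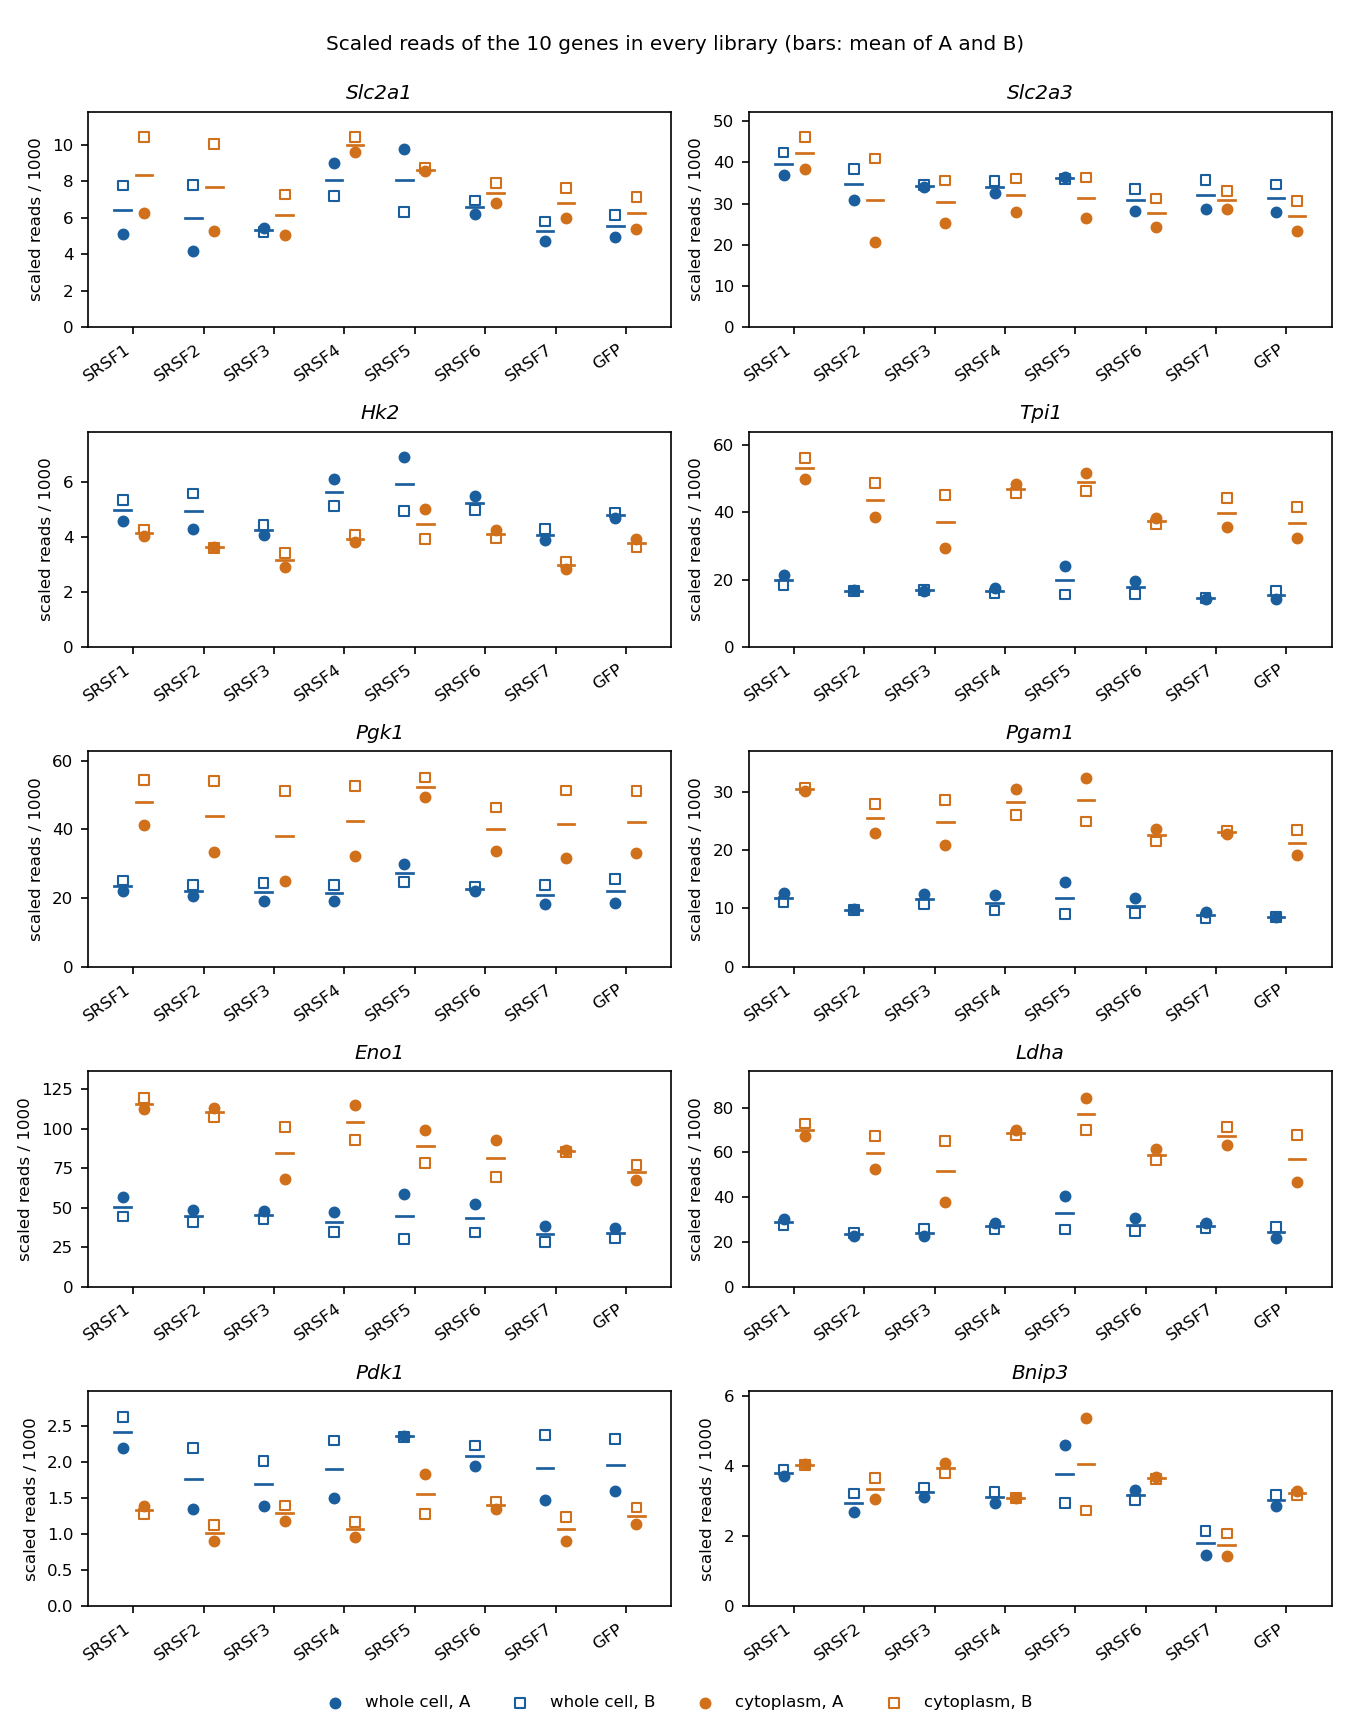
Scaled reads (axis in kiloreads) of the 10 genes in all 32 libraries, by esiRNA target on the horizontal axis, with filled circles for A, open squares for B and bars for the mean of A and B. The SRSF7 knockdown libraries hold the lowest Bnip3 values in both fractions (1453 and 2140 scaled reads in the whole cell, 1445 and 2075 in the cytoplasm), and the whole-cell SRSF5 A library stands far above SRSF5 B for most genes.

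Across libraries, Bnip3 varied most. Its highest library held 3.16 times the scaled reads of the lowest in the whole cell and 3.72 times in the cytoplasm. Slc2a3 varied least in the whole cell, at 1.51 times, and Pgam1 least in the cytoplasm, at 1.69 times. The other members lay between 1.65 and 2.33 times in the whole cell.

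Over the 7 knockdowns, 6 of 70 whole-cell comparisons of a member with GFP passed an adjusted p of 0.05, and 3 of 70 did in the cytoplasm (limma with the letter as block, Benjamini-Hochberg over all genes). Of those 9 calls, 8 were increases, in the SRSF1 or SRSF3 knockdown, and 1 was the decrease of Bnip3 in the SRSF7 knockdown. Without the block, 0 of 70 passed in either fraction, so every call rests on pairing libraries by letter. With no filter on low values 1 call was left in each fraction, Pgam1 after SRSF3 knockdown in the whole cell (adjusted p = 0.0441) and Slc2a3 after SRSF1 knockdown in the cytoplasm (0.0474). The 7 comparisons of a fraction share the same 2 GFP libraries. Total RNA per cell was not measured, and in bulk RNA fewer cells expressing a gene and less RNA per cell cannot be told apart.

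**Figure D2:**
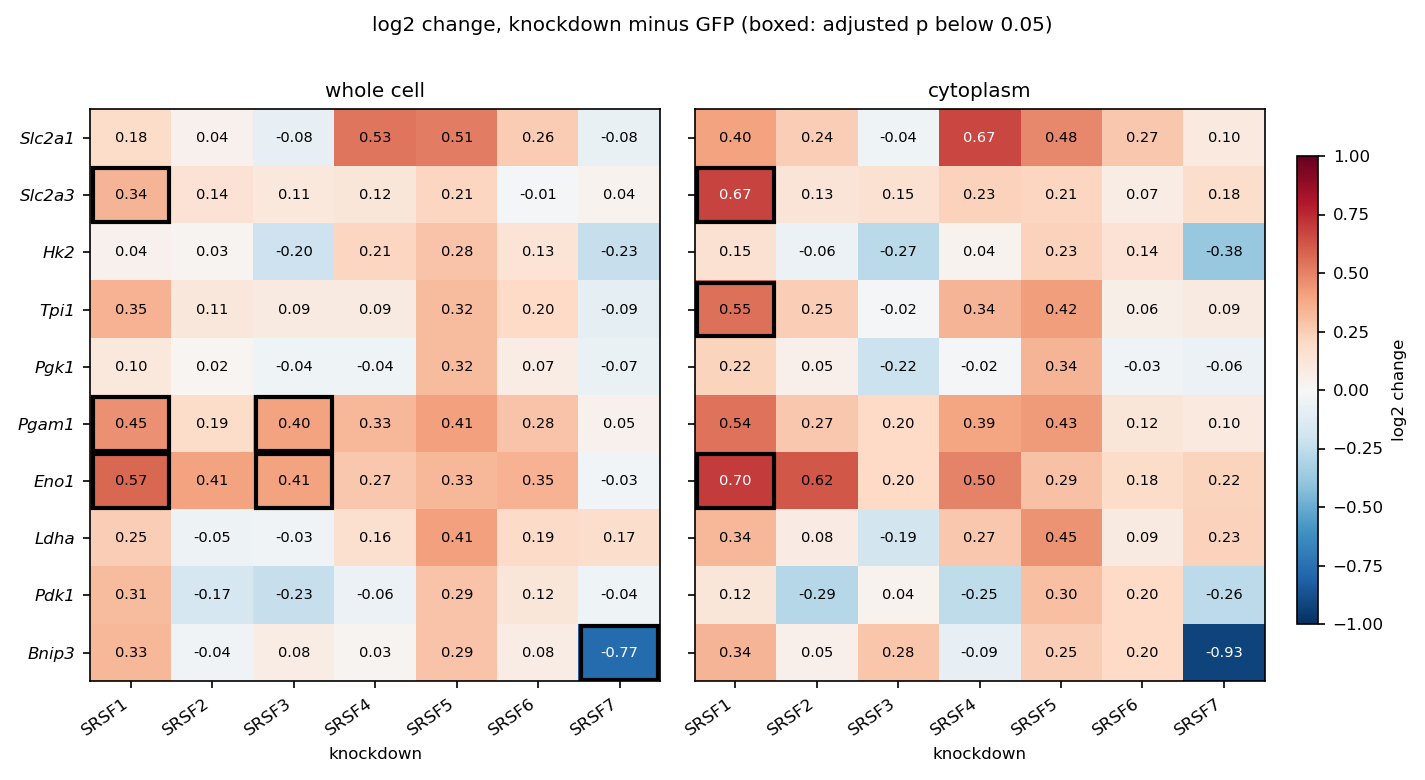
The log2 change of each gene (rows) in each knockdown (columns), knockdown minus GFP, in the whole cell and the cytoplasm, with calls at an adjusted p below 0.05 boxed. All 10 values are above 0 in the SRSF1 and SRSF5 columns of both panels, and the Bnip3 values in the SRSF7 column (-0.77 and -0.93) are the lowest of each panel.

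SRSF1 knockdown raised Slc2a3, Pgam1 and Eno1 in the whole cell and Slc2a3, Tpi1 and Eno1 in the cytoplasm. No member was called lower, and all 10 log2 changes of scaled reads were above 0 in both fractions. In the authors' pooled FPKM, Hk2 was instead lower after SRSF1 knockdown. It stood at 35.6 against 37.7 in GFP whole cells, and at 34.6 against 39.3 in GFP cytoplasm. The other members were higher than GFP by FPKM in both fractions. The median change over the 10 genes was 0.32 on the log2 scale in the whole cell, where the median of all genes was -0.01, and 0.37 in the cytoplasm, where it was also -0.01. The knockdown called 11% of 18540 genes in the whole cell and 6.06% of 17566 in the cytoplasm, against 3 of 10 members in each. Because the members were chosen with earlier results of these data known, setting them beside all genes is a description and no test.

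Eno1 codes enolase, which makes phosphoenolpyruvate, and it showed the largest called increase in each fraction. Whole-cell Eno1 had 56613 and 44397 scaled reads in the SRSF1 knockdown libraries A and B, against 36884 and 30439 in the GFP libraries A and B. Both knockdown libraries were above both GFP libraries, and the log2 change was 0.57 (SE 0.14, adjusted p = 0.0140). In the cytoplasm Eno1 had 112204 and 119417 scaled reads in the knockdown libraries, against 67741 and 76861 in the GFP libraries. The groups again did not overlap, with a log2 change of 0.70 (SE 0.18, adjusted p = 0.0289). The whole-cell call was lost without SRSF1 A (0.62, adjusted p = 0.0930), SRSF1 B (0.52, 0.108) or GFP A (0.49, 0.118). In the cytoplasm it was lost without SRSF1 A (0.76, adjusted p = 0.122), SRSF1 B (0.63, 0.201), SRSF7 B (0.68, 0.0545), GFP A (0.58, 0.283) or GFP B (0.81, 0.0959).

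Slc2a3, the high-affinity glucose transporter of the early embryo and of neurons, had 37056 and 42407 scaled reads in whole SRSF1 knockdown cells A and B, against 27993 and 34660 in whole GFP cells A and B. The groups did not overlap, and B was above A in both. Within each letter the knockdown was higher, by 0.40 in A and 0.29 in B on the log2 scale, and the fitted change was 0.34 (SE 0.09, adjusted p = 0.0254). In the cytoplasm Slc2a3 had 38529 and 46259 scaled reads in the knockdown libraries, against 23454 and 30678 in the GFP libraries. The change of 0.67 (SE 0.15, adjusted p = 0.0151) was again of like size in A (0.73) and B (0.62). The whole-cell call was lost without SRSF1 A (0.34, adjusted p = 0.174), SRSF1 B (0.33, 0.151) or GFP A (0.28, 0.165), and the cytoplasmic call without SRSF1 A (0.56, 0.161), GFP A (0.71, 0.128) or GFP B (0.62, 0.136).

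Pgam1, the phosphoglycerate mutase, rose in whole cells. It had 12586 and 11094 scaled reads in the SRSF1 knockdown libraries, against 8580 and 8598 in the GFP libraries, a log2 change of 0.45 (SE 0.12, adjusted p = 0.0228). Both knockdown libraries exceeded both GFP libraries, whose values were almost the same. In the cytoplasm Pgam1 had 30106 and 30662 scaled reads in the knockdown libraries, against 19088 and 23390 in the GFP libraries, and its change of 0.54 missed the threshold (adjusted p = 0.0541). DESeq2 on exon-bin reads called this cytoplasmic change (0.54), and edgeR did not. The whole-cell call was lost without SRSF1 A (0.49, adjusted p = 0.122), SRSF1 B (0.40, 0.153) or GFP A (0.31, 0.222).

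Tpi1, the triosephosphate isomerase, passed in the cytoplasmic comparison alone, and the difference between the fractions was not itself called (unadjusted p = 0.379). It had 50042 and 56088 cytoplasmic scaled reads in the SRSF1 knockdown libraries, against 32277 and 41600.5 in the GFP libraries. The groups did not overlap, and the log2 change was 0.55 (SE 0.15, adjusted p = 0.0441). This call sat close to the threshold and was lost in 13 of 25 alternatives. Those included leaving out SRSF1 A (0.52, adjusted p = 0.207), SRSF1 B (0.57, 0.189), GFP A (0.46, 0.342), GFP B (0.63, 0.137), SRSF4 A (0.53, 0.0586), SRSF6 A (0.54, 0.0685), SRSF6 B (0.54, 0.0574), SRSF7 A (0.55, 0.0608) or SRSF7 B (0.53, 0.0848), and the authors' scaling with no further factor (0.53, 0.0636). Whole-cell Tpi1 had 21330 and 18446 scaled reads in the knockdown libraries, against 14399 and 16683 in the GFP libraries, with a change of 0.35 (adjusted p = 0.115).

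The other 6 members were not called in either fraction of the SRSF1 knockdown. Their log2 changes were 0.33 and 0.34 for Bnip3 in the whole cell and the cytoplasm, 0.31 and 0.12 for Pdk1, 0.25 and 0.34 for Ldha, 0.18 and 0.40 for Slc2a1, 0.10 and 0.22 for Pgk1, and 0.04 and 0.15 for Hk2. In each fraction 6 of 10 members had both knockdown libraries above both GFP libraries, as did 23.3% of all genes in the whole cell and 18.5% in the cytoplasm. Such shares were not tabulated for the other knockdowns, so groups that do not overlap there have no background.

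Read coverage along the members also differed between these libraries. The share of a member's reads in the exon bins lying wholly within the first 25% of its exon-bin length, at the 5′ end, was used. It was taken relative to the median library. A bin that crossed the 25% mark was left out, so the stretch could be shorter. The bins also differed between the fractions, with 8 for Slc2a3 in the whole cell and 6 in the cytoplasm. The median over the 10 members was 1.07 and 1.03 in cytoplasmic SRSF1 A and B, against 0.966 and 0.98 in GFP A and B. For Slc2a3 that share was 6.22 and 5.85% of reads in SRSF1 A and B, against 5.14 and 5.08% in GFP A and B. In the whole cell the medians were 0.997 and 1.04 in SRSF1 A and B, against 0.996 and 0.995 in GFP A and B. Its part in the SRSF1 result was not tested.

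SRSF3 knockdown raised Pgam1 and Eno1 in the whole cell, and no member was called in the cytoplasm. The Srsf3 transcript was lowered less in A than in B. It had 7145 and 4440 scaled reads in whole SRSF3 A and B, against 8695 and 8161 in whole GFP A and B. In the cytoplasm it had 5720 and 3215, against 7172 and 6254. Pgam1 had 12503 and 10706 scaled reads in whole SRSF3 knockdown cells, against 8580 and 8598 in whole GFP cells, a log2 change of 0.40 (SE 0.12, adjusted p = 0.0167). Eno1 had 47920 and 42859 scaled reads in the knockdown libraries, against 36884 and 30439 in the GFP libraries, a change of 0.41 (SE 0.14, adjusted p = 0.0317). For both genes the groups did not overlap, but the share of all genes without overlap was not tabulated for this knockdown. The Pgam1 call was lost without SRSF3 A (0.43, adjusted p = 0.0811), SRSF3 B (0.37, 0.0702) or GFP A (0.26, 0.217), and the Eno1 call without SRSF3 B (0.24, 0.282) or GFP A (0.32, 0.216). In a fit of only the 4 libraries of the comparison both calls were lost (Pgam1 0.40, adjusted p = 0.0864, and Eno1 0.40, 0.0691). This knockdown called 33.4% of all genes in the whole cell and 13.8% in the cytoplasm, so 2 of 10 and 0 of 10 members were shares below the background. In the cytoplasm no member had an unadjusted p under 0.05 either, and edgeR and DESeq2 on reads summed over exon bins also called none. The median change of the 10 genes was 0.02 in the whole cell and 0.01 in the cytoplasm, where Eno1 and Pgam1 both measured 0.20 and Hk2 measured -0.27.

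Bnip3 fell in the SRSF7 knockdown. It had 1453 and 2140 scaled reads in whole SRSF7 knockdown cells A and B, against 2864 and 3170 in whole GFP cells A and B. Both knockdown libraries were below both GFP libraries and below every other whole-cell library, and the log2 change was -0.77 (SE 0.17, adjusted p = 0.0447). In the cytoplasm Bnip3 had 1445 and 2075 scaled reads in the knockdown libraries, against 3296 and 3167 in the GFP libraries. These were again the 2 lowest of 16 libraries, but the change of -0.93 (SE 0.22) did not pass over all genes (adjusted p = 0.132, unadjusted p = 0.000752). DESeq2 on exon-bin reads called it in both fractions, and edgeR in the whole cell only.

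The Bnip3 decrease was larger in A than in B, at -0.98 against -0.57 in the whole cell and -1.22 against -0.63 in the cytoplasm. The whole-cell call was fragile. It was lost without SRSF7 A (-0.49, adjusted p = 0.680), GFP A (-0.81, 0.208) or GFP B (-0.73, 0.113). It also slipped past the threshold without SRSF1 A (-0.77, 0.0578), SRSF1 B (-0.76, 0.0612), SRSF2 A (-0.77, 0.0535), SRSF2 B (-0.77, 0.0538), SRSF4 A (-0.78, 0.0578), SRSF4 B (-0.77, 0.0552), SRSF6 A (-0.77, 0.0633) or SRSF6 B (-0.77, 0.0611). In none of these did it change sign. SRSF7 knockdown called 1.08% of all genes in the whole cell and 0.074% in the cytoplasm.

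The other 9 members were not called in either fraction of this knockdown. Their whole-cell log2 changes ran between -0.23 for Hk2 and 0.17 for Ldha, and their cytoplasmic changes between -0.38 for Hk2 and 0.23 for Ldha. Hk2 had 2847 and 3085 cytoplasmic scaled reads in the SRSF7 knockdown libraries, against 3926 and 3642 in the GFP libraries. The Hk2 groups did not overlap in either fraction, but the cytoplasmic change had an adjusted p of 0.311.

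SRSF2, SRSF4, SRSF5 and SRSF6 knockdown called no member in either fraction with limma or with edgeR. The number of members with an unadjusted p under 0.05 was 1 for SRSF2, 2 for SRSF4, 7 for SRSF5 and 2 for SRSF6 in the whole cell, and 1, 4, 5 and 0 in the cytoplasm. The share of all genes under that unadjusted threshold was not tabulated, so these counts have no background. DESeq2 called Eno1 after SRSF2 knockdown in both fractions and Slc2a1 after SRSF4 knockdown in the cytoplasm, and no member after SRSF5 or SRSF6 knockdown. The share of all genes called was 5.99% in the whole cell and 1.72% in the cytoplasm for SRSF2, 0.0108% and 0.0114% for SRSF4, 0.00539% and 0% for SRSF5, and 0.0216% and 0.0797% for SRSF6.

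After SRSF2 knockdown, Eno1 was the member that moved furthest from 0. It had 48500 and 40829 scaled reads in whole knockdown cells, against 36884 and 30439 in whole GFP cells, a log2 change of 0.41 (SE 0.14, adjusted p = 0.0917). Cytoplasmic Eno1 had 113277 and 107372 scaled reads in the knockdown libraries, against 67741 and 76861 in the GFP libraries, a change of 0.62 (SE 0.18, adjusted p = 0.0793). The groups did not overlap in either fraction. The median change over the 10 genes was 0.03 in the whole cell and 0.11 in the cytoplasm, and Pdk1 measured -0.17 and -0.29.

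After SRSF4 knockdown, Slc2a1 showed the highest value. It had 9607 and 10417 cytoplasmic scaled reads in the knockdown libraries, against 5392 and 7142 in the GFP libraries, a log2 change of 0.67 (SE 0.17, unadjusted p = 0.00118, adjusted p = 0.213). Whole-cell Slc2a1 had 9002 and 7195 scaled reads in the knockdown libraries, against 4950 and 6173 in the GFP libraries, a change of 0.53 (SE 0.23, adjusted p = 0.538). The groups did not overlap in either fraction, but the whole-cell difference was 0.85 within A and 0.22 within B. The cytoplasmic differences were 0.76 within A and 0.58 within B.

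After SRSF5 knockdown all 10 members were above GFP in letter A, and the 2 letters differed. In the whole cell all 10 members were higher in SRSF5 A than in GFP A, with a median log2 difference of 0.67, while 6 of 10 were higher in SRSF5 B than in GFP B, with a median of 0.01. Over all genes the medians were -0.02 within A and 0.00 within B, and 47.6% of genes were higher in SRSF5 A than in GFP A. In the cytoplasm all 10 members were higher within A, with a median of 0.64, and 8 of 10 within B, with a median of 0.13. The medians over all genes there were -0.03 and 0.03.

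The genes that led this pattern were Slc2a1, Ldha, Pgam1 and Tpi1. Whole-cell Slc2a1 had 9785 and 6343 scaled reads in SRSF5 A and B, against 4950 and 6173 in GFP A and B, so the difference was 0.97 in A and 0.04 in B. Ldha had 40375 and 25564 scaled reads in SRSF5 A and B, against 21849 and 26783 in GFP A and B, with 0.88 in A and -0.06 in B. Eno1 had 58844 and 30336 in SRSF5 A and B, against 36884 and 30439 in GFP A and B. For these 3 genes SRSF5 A was the highest of the 16 whole-cell libraries, whereas SRSF5 B lay beside GFP B. In the cytoplasm Bnip3 had 5373 and 2733 scaled reads in SRSF5 A and B, against 3296 and 3167 in GFP A and B, and SRSF5 A was the highest of all 16 cytoplasmic libraries.

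The GFP libraries differed between the letters too. Relative to its mean over the 16 whole-cell libraries, the median member was -0.27 in GFP A and 0.01 in GFP B, and 0 of 10 members were above their mean in GFP A, against 5 of 10 in GFP B. SRSF5 A stood at 0.48 with all 10 members above, and SRSF5 B at 0.00 with 5 above. The residual Srsf5 transcript was 4657 scaled reads in A and 3383 in B, against 8285 in GFP A and 8203 in GFP B.

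**Figure D3:**
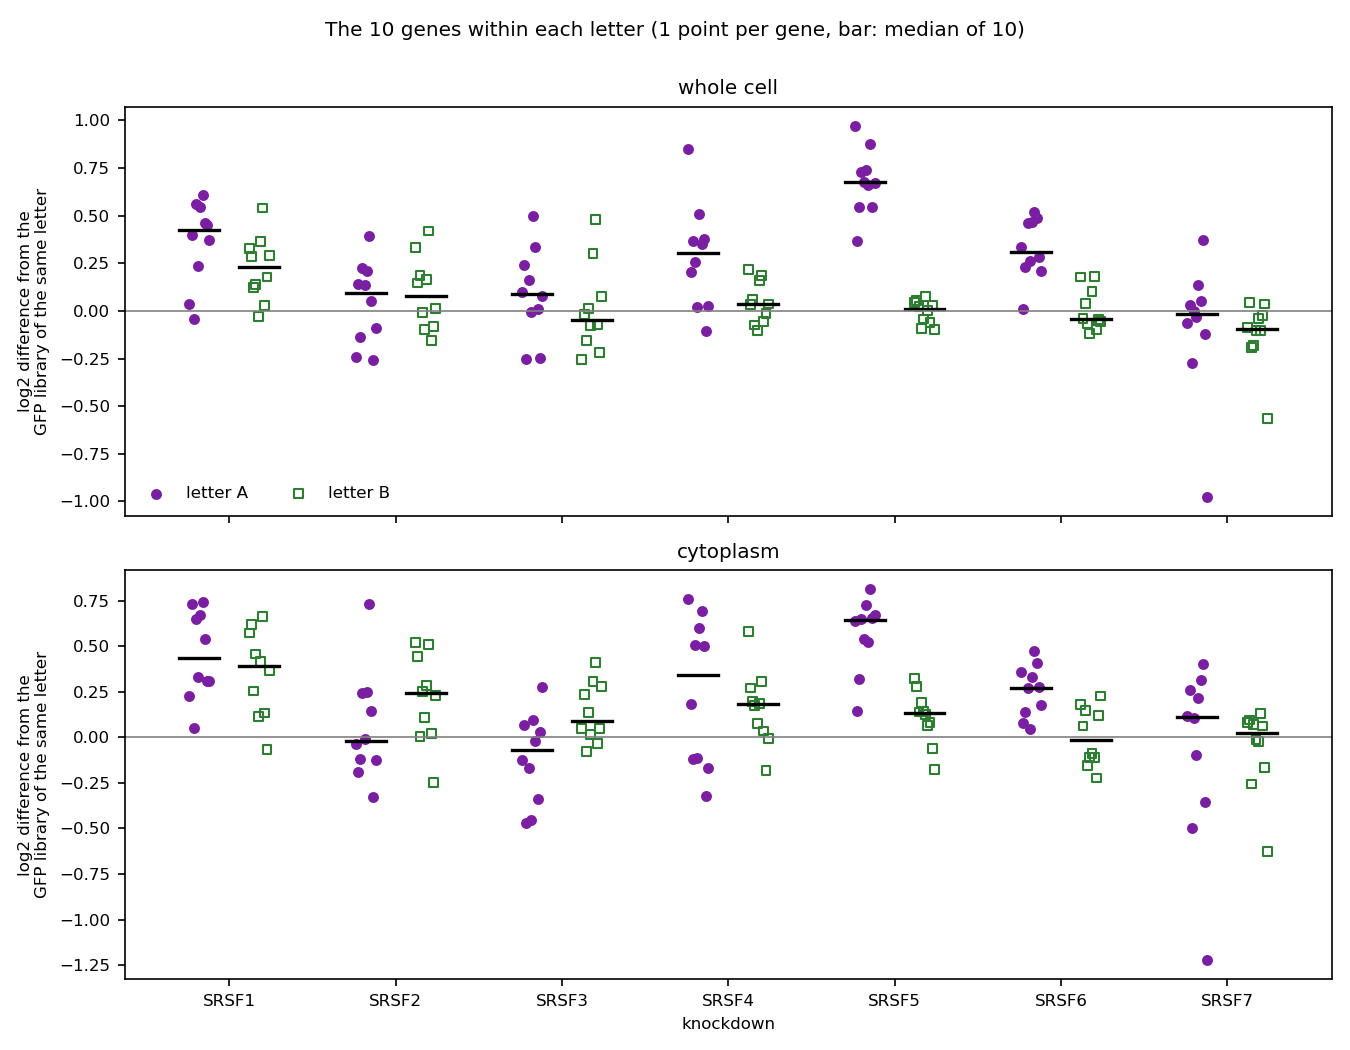
The log2 difference of each of the 10 genes from the GFP library of the same letter, for each knockdown on the horizontal axis, with filled circles for A, open squares for B and bars for the median of 10. The SRSF1 medians are above 0 in both letters and both fractions (0.42 and 0.23 in the whole cell, 0.43 and 0.39 in the cytoplasm), while the SRSF5 medians are 0.67 in A and 0.01 in B in the whole cell.

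For SRSF4 and SRSF6 the whole-cell medians were 0.31 within A and 0.03 within B for SRSF4, and 0.31 within A and -0.04 within B for SRSF6. For SRSF6 all 10 members were above GFP within A in both fractions, and 4 of 10 within B in the whole cell and 5 of 10 in the cytoplasm. Of all genes, 49.8% were above GFP within A and 51.3% within B in the whole cell after SRSF6 knockdown. In the cytoplasm these shares were 52.4% and 53.3%. SRSF6 had 2 members at an unadjusted p under 0.05 in the whole cell, Eno1 (0.35, adjusted p = 0.489) and Pgam1 (0.28, adjusted p = 0.514). The SRSF1 medians were 0.42 within A and 0.23 within B in the whole cell, and 0.43 within A and 0.39 within B in the cytoplasm. Whether the letters differed more in one knockdown than in another was not tested.

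A difference between the fractions was tested over all 32 libraries by subtracting each whole-cell change from the cytoplasmic one. No member passed in any knockdown, 0 of 70, and none had an unadjusted p under 0.05. The smallest belonged to Slc2a3 in the SRSF1 knockdown, at 0.33 (SE 0.18, unadjusted p = 0.0815). The share of all 17030 genes called was 0.0176% for SRSF1, 0.746% for SRSF3 and 0% for each of SRSF2, SRSF4, SRSF5, SRSF6 and SRSF7. The median cytoplasmic minus whole-cell change of the members in the SRSF1 knockdown was 0.12, against 0.03 over all genes. A difference between the fractions was thus not detectable with 2 libraries per group, which does not show that none occurred.

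The letters themselves separated several members. The fit called 5 of 10 members between A and B in the whole cell, where it called 39.1% of all genes, and 4 of 10 in the cytoplasm, where it called 52.1%. In the whole cell Eno1 was higher in A in all 8 groups, by 0.42 on the log2 scale (adjusted p = 0.000153), and Pgam1 in 7 of 8, by 0.24 (0.00448). Pdk1 was lower in A in all 8 groups (-0.45, 0.000109), as was Slc2a3 (-0.20, 0.00228), and Pgk1 was lower in 7 of 8 (-0.23, 0.00894). In the cytoplasm Pgk1 was lower in A in all 8 groups (-0.61, adjusted p = 1.59e-05), as were Slc2a3 (-0.45, 0.000128) and Slc2a1 (-0.43, 0.000620), and Tpi1 was lower in 6 of 8 (-0.20, 0.0381). The acinar marker sum and the mesoderm and muscle marker sum also differed between the letters, the second with 2359 scaled reads in whole GFP A and 6144 in whole GFP B. Their part in the letter differences was not tested.

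**Figure D4:**
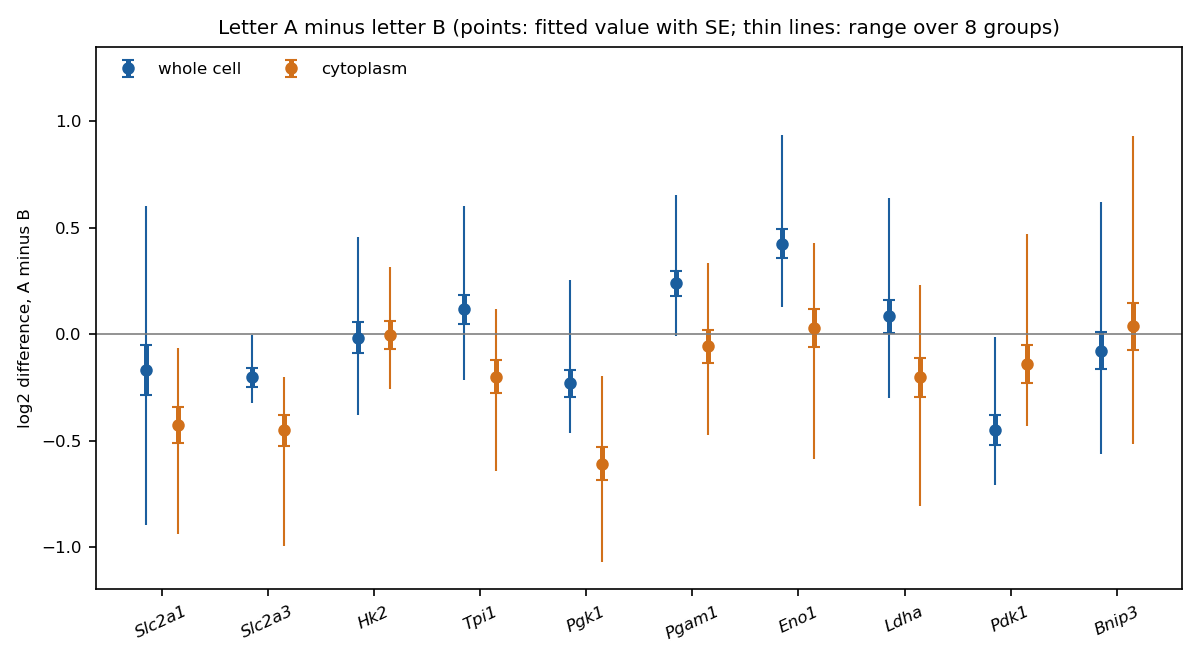
The log2 difference between letters, A minus B, for each gene on the horizontal axis, in the whole cell and the cytoplasm, with points for the fitted value, thick bars for its SE and thin lines for the lowest and highest of the 8 groups. Whole-cell Eno1 lies above 0 in all 8 groups (0.42), and cytoplasmic Pgk1 below 0 in all 8 (-0.61).

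Other genes of the pathway were followed in 4 fixed lists. Of 19 other glycolysis genes, all tested in both fractions, SRSF1 knockdown raised 1 and lowered 1 in the whole cell, with a list median of 0.03, beside 0.32 for the members. Aldoa, the aldolase that splits fructose bisphosphate, had 38380.5 and 39000.1 scaled reads in SRSF1 knockdown cells, against 25213 and 30995 in GFP cells (0.46, adjusted p = 0.0304). Eno3, the muscle enolase, had 229 and 278 scaled reads, against 409 and 413 in GFP cells (-0.71, adjusted p = 0.00299). Among 20 other HIF target genes SRSF1 knockdown raised only Car9 in the whole cell, a carbonic anhydrase that is a classic hypoxia marker, with 84.5 and 77.4 scaled reads, against 38.1 and 36.9 in GFP cells (1.08, adjusted p = 0.0105). The median of those 20 genes was -0.01, and 7 were above GFP within A and 11 within B. In the cytoplasm SRSF1 knockdown lowered Pfkp, the platelet phosphofructokinase (-0.71, adjusted p = 0.00272). It raised Hif1an, an oxygen-dependent inhibitor of HIF (0.64, 0.0194), and Pdp2, a phosphatase that reactivates pyruvate dehydrogenase (0.98, 0.00859). Over the 4 lists this knockdown called 3 of 56 genes tested in the whole cell, against 11% of all genes. In the cytoplasm it called 3 of 55, against 6.06% of all genes.

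SRSF3 knockdown called 17 of the 56 list genes tested in the whole cell, against 33.4% of all genes, of which 2835 rose and 3349 fell. Among the 19 other glycolysis genes it called 1 higher and 5 lower. Ldhb, the lactate dehydrogenase subunit that favours pyruvate, fell by 0.65 on the log2 scale (adjusted p = 0.000169), Pfkfb3, the maker of an activator of phosphofructokinase, by 0.64 (0.00955), and the phosphofructokinases Pfkm and Pfkl by 0.39 (0.00371) and 0.37 (0.0322). The fifth, Pfkp (-0.36, adjusted p = 0.0123), was named after its value was seen. Slc16a1, a lactate transporter, rose by 0.44 (0.0140), with 0.76 within A and 0.12 within B. Of 20 other HIF target genes 4 fell and none rose: Vegfa, the angiogenic growth factor, by 0.95 (0.000291), Car9 by 0.78 (0.0217), Car12 by 0.70 (0.0469) and P4ha2, a collagen prolyl hydroxylase, by 0.30 (0.0398). Whole-cell Vegfa had 1519 and 3236 scaled reads in SRSF3 knockdown cells A and B, against 3925 and 4475 in GFP cells A and B. The HIF subunits Hif3a (-0.63, 0.00322) and Arnt (-0.24, 0.0386) were lower as well, out of 7 HIF pathway factors. Cell type markers moved in the same libraries: 3 of 7 pluripotency markers and 4 of 6 mesoderm and muscle markers fell in the whole cell after SRSF3 knockdown, with list medians of -0.33 and -0.78, and 1 of 7 and 4 of 6 fell in the cytoplasm. Their part in the values of these lists was not tested.

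Pyruvate dehydrogenase carries pyruvate into mitochondrial oxidation. Of 10 tested genes for this complex and its regulators, 4 fell and 1 rose in the whole cell after SRSF3 knockdown, against the 33.4% of all genes called in either direction. Dlat, the E2 subunit of the complex, had 2051 and 2078 scaled reads in SRSF3 knockdown cells, against 3526 and 3553 in GFP cells (-0.81, adjusted p = 8.66e-06). Pdk2 (-0.65, 0.00482), Pdp1 (-0.54, 0.00124) and Pdhx (-0.38, 0.00298) fell too, and Pdp2 rose (0.66, 0.00323). In the cytoplasm Dlat (-0.69, 0.00118) and Pdk2 (-0.51, 0.0427) fell and Pdp2 rose (1.40, 0.000555). The cytoplasm also held lower Ldhb (-0.71, 0.00264), Pfkp (-0.63, 0.00332), Pfkm (-0.43, 0.0452), Vegfa (-0.57, 0.0378) and Hif3a (-0.66, 0.0262), and higher Epas1, which codes HIF2A (0.89, 0.0184). Over the 4 lists 9 of 55 genes tested were called in the cytoplasm, against 13.8% of all genes. Pdk1, the kinase among the members, measured -0.23 (adjusted p = 0.218) in the whole cell and 0.04 in the cytoplasm.

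SRSF2 knockdown called Pgm2, a phosphoglucomutase, lower in the whole cell (-0.65, adjusted p = 0.0143) and in the cytoplasm (-0.61, 0.0463), and Hif3a higher in the whole cell (0.49, 0.0495). That was 2 of 56 list genes in the whole cell, against 5.99% of all genes, and 1 of 55 in the cytoplasm, against 1.72%. The SRSF4, SRSF5, SRSF6 and SRSF7 knockdowns called no gene of the 4 lists in either fraction with limma. Of 56 list genes tested in the whole cell, 3, 19, 5 and 9 had an unadjusted p under 0.05 after SRSF4, SRSF5, SRSF6 and SRSF7 knockdown, and of 55 in the cytoplasm 7, 9, 8 and 10. The share of all genes under that unadjusted threshold was not tabulated, and neither were edgeR and DESeq2 calls for these lists. Of the other HIF targets after SRSF5 knockdown, 17 of 20 in the whole cell were above GFP within A, with a median of 0.55, and 12 of 20 within B, with a median of 0.02. In the cytoplasm 16 of 19 tested were above GFP within A, with a median of 0.50, and 10 of 19 within B, with a median of 0.07.

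Use of exons within the members was tested on 207 exon bins, the non-overlapping pieces into which annotated exons divide a gene. The minimum mean of 5 reads was passed by 167 member bins in the whole cell and 151 in the cytoplasm. In each fraction 1 bin was called at an adjusted p of 0.1. Both calls were in Slc2a3, in bins that each occur in only 1 annotated transcript. Of all 181257 whole-cell bins, SRSF1 knockdown called 0.536%, SRSF2 0.237%, SRSF3 1.26%, SRSF4 and SRSF5 0% each, SRSF6 0.0215% and SRSF7 0.195%. Of 150291 cytoplasmic bins, SRSF1 called 0.379%, SRSF2 0.213%, SRSF3 1.45%, SRSF4 0.00399%, SRSF5 0.00133%, SRSF6 0.00798% and SRSF7 0.0592%.

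The first bin, E008 at chr6:122732875-122733176 on the minus strand (mm10), is 302 bases long. It held 74 and 112 reads in whole SRSF3 knockdown cells, against 31 and 41 in whole GFP cells, which was 0.209 and 0.244% of the reads of the gene, against 0.10 and 0.092%. The 2 SRSF3 libraries were the highest of the 16, although the bin remained a small part of the transcript. The log2 change in use was 1.24 (adjusted p = 0.00178), and it was lost without GFP B (1.20, 0.261) and without the block (1.25, 0.122).

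The second bin, E014 at chr6:122737299-122739832, is 2534 bases long and was called lower in the cytoplasm after SRSF2 knockdown (-1.30, adjusted p = 0.000774). It held 1151 and 7342 reads in SRSF2 knockdown cytoplasm A and B, against 4999 and 7520 in GFP cytoplasm A and B, or 5.83 and 16.5% of the reads of the gene, against 21.2 and 20.6%. The difference lay in 1 library. Without SRSF2 A it was -0.25 (adjusted p = 1), without SRSF2 B it was -2.41, and without GFP B it was -1.17 (0.290). Without the block it was -1.29 (0.590). In the same SRSF2 A library the 5′ bin E020 held 0.218% of the reads of Slc2a3, against 0.508 to 0.938% in the other 15 cytoplasmic libraries, and the acinar marker sum was 23.2 scaled reads, against 374 to 501 in the other 7 A libraries. The part of these differences in the E014 call was not tested. Whole-cell E014 held 13.96 and 8.37% of the reads in SRSF2 knockdown cells, against 11.8 and 13.1% in GFP cells.

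**Figure D5:**
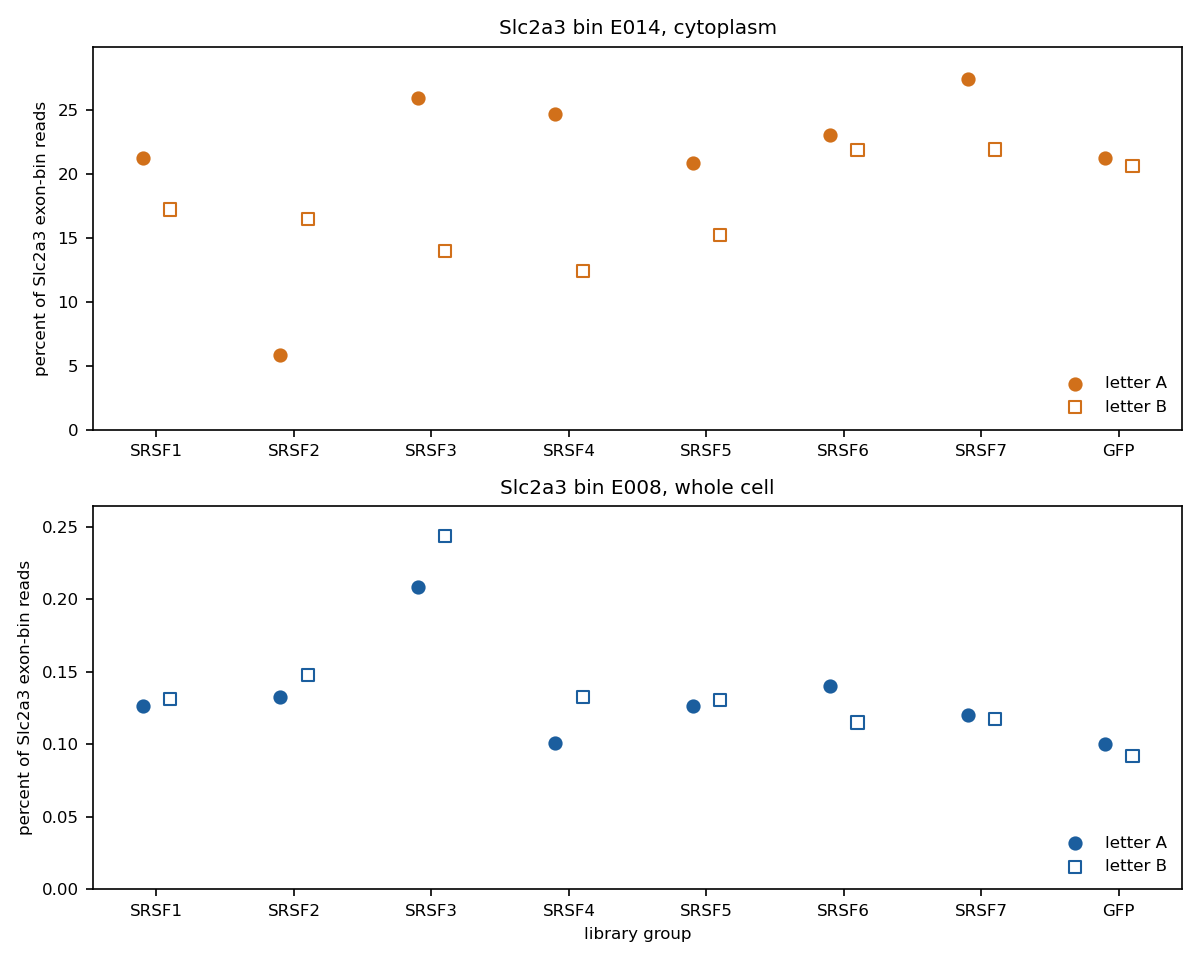
The percent of the reads of Slc2a3 that fell in bin E014 in the cytoplasm (top) and bin E008 in the whole cell (bottom), by esiRNA target on the horizontal axis, with filled circles for A and open squares for B. SRSF2 A is the single low library for E014 (5.83%), and the SRSF3 libraries are the 2 highest for E008 (0.209 and 0.244%).

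Isoform shares came from MISO on pooled replicates. Among the members, Bnip3, Eno1 and Pdk1 had an event with alternative 3′ ends. The distal 3′ end of Bnip3 took 95 to 97% of its transcripts in the 7 whole-cell knockdowns, against 95% in GFP cells, and 96 to 99% in the cytoplasm, against 97%, a spread of a few percent among all groups. The upstream last exon of Eno1 took 11 to 12% in whole knockdown cells, against 12% in GFP cells, and 8 to 9% in the cytoplasm, against 8%. Of the pairs of Pdk1 last exons, all but 1 had shares of 97 to 99% in the whole cell and 99 to 100% in the cytoplasm, GFP included. The remaining pair stood at 54 to 65% in whole knockdown cells, against 62% in GFP cells. In the cytoplasm its share was 72 to 91%, against 72% in GFP. The highest, 91% in SRSF5 knockdown cytoplasm, had a 95% interval of 69 to 100%, which overlapped that of GFP cytoplasm (37 to 92%). Pooling leaves these shares without replicate error.

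Members were also compared in pairs over the libraries. After the letter means were removed, the correlation of log2 values over the 16 libraries was above 0 for 45 of 45 pairs of members in the whole cell (median Pearson r 0.62) and for 44 of 45 in the cytoplasm (median 0.53). These are descriptions over libraries that share scaling and controls. Pairs of other genes were not counted in this way, so the member counts are not set against a background. Outside the pathway lists, the genes most like the mean of the members in the whole cell, of 8759 ranked, were Cdk1 (r = 0.906), Ppme1 (0.874), Rab9 (0.873), Pgam1-ps2 (0.871) and Gm5537 (0.870). In the cytoplasm, of 7715 ranked, they were Pgam1-ps2 (0.921), a gene with no symbol in the files (0.913), Cpt2 (0.874), Gm5537 (0.868) and Zfp395 (0.862). Pgam1-ps2 is a copy of Pgam1, and reads shared between the pair could have been split by the authors' estimate. Tpi1, Pgk1, Eno1 and Ldha have processed copies in the mouse genome too, so their levels carry the same uncertainty.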

How the data were processed

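Polyadenylated RNA of 32 libraries was sequenced, 16 per fraction, and sample groups came from the labels. Among the tools in the submitters' processing notes are Cufflinks 2.1.1, Bowtie2 2.1.0, TopHat2 (2.0.10 and 2.0.9), CASAVA 1.8.2 and cutadapt (version not given in the sources used here), with genome build mm10 for genes and exon bins and mm9 for isoforms. The gene values deposited by the authors are a signal, estimated reads per gene divided by 1 factor per library. The exon-bin signal of the authors is reads divided by 1 factor per library, and whole reads were recovered for 100% of values within 0.01. The authors' FPKM values are pooled per group. The isoform shares deposited by the authors are fractions from MISO on pooled replicates, printed here as percent. Columns with the authors' own comparisons (fold changes, p-values, Bayes factors) were not used.

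Gene values were taken as log2(scaled reads + 1) with TMM factors, filtered with filterByExpr, and fitted in limma 3.58.1 with trend, all 16 libraries of a fraction in 1 fit and the letter as a block, so fold changes of low genes are understated. P-values were adjusted by Benjamini-Hochberg over all genes, with a threshold of 0.05. The fractions were compared by an interaction over 32 libraries. Bins averaging 5 reads or more were tested with voom and diffSplice (threshold 0.1). edgeR 4.0.16 and DESeq2 1.42.0 were run on recovered bin reads summed per gene, as alternatives. Scripts were tested on simulated data with 200 changed genes or bins. With the letter as block, the gene test found 62% of 1.5-fold and 88% of 2-fold changes in the whole cell. In the cytoplasm it found 26% and 81%. The exon-bin test found 3% and 46% in the whole cell and 13% and 46% in the cytoplasm. Unchanged features called were 5 genes and 19 bins in the whole cell, and 4 genes and 15 bins in the cytoplasm. Same-letter libraries deviated together: over the 28 pairs of groups the Spearman correlation of A minus B differences was 0.238 to 0.815 in the whole cell and 0.449 to 0.827 in the cytoplasm, the study's methods call the replicates biological, and whether a letter marks a shared day or batch is not stated. In 4 genes per fraction, none of them a member, a listed 0 despite at least 100 bin reads was treated as a failed estimate and left out.

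The 10 genes and the lists were chosen with earlier results of these data known. Named were all 10 members in every comparison, in each other list up to 8 genes per fraction that passed in most knockdowns (ties by absolute change; every passing gene in lists of 7 or fewer), and the 5 genes most like the member mean among those with a mean of at least 500 scaled reads. Alternatives were no block, a pseudocount of 10, no filter, other scalings, other tools, only the 4 libraries of a comparison, and each library left out in turn.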

Additional observations from a re-analysis of the deposited data

How the results depend on the processing

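No change of sign occurred for the 9 calls of members or the 2 called Slc2a3 bins under any alternative tried (25 per member call, 19 per bin). Without the letter as a block, 0 of 70 whole-cell and 0 of 70 cytoplasmic member comparisons passed, against 6 and 3 with it, and 0 member bins in either fraction, against 1 and 1. With no filter on low values 1 of 70 was called in each fraction. DESeq2 on recovered reads called 7 of 70 member comparisons in the cytoplasm, and a fit of only the 4 libraries of each comparison called 15 of 70 there, and 3 member bins in each fraction. With 1 library left out, called member comparisons ran between 0 and 8 in the whole cell (0 without GFP A) and between 0 and 5 in the cytoplasm (0 without SRSF1 A, GFP A or GFP B), called bins between 0 and 4 and between 0 and 7, and members called between letters between 5 and 7 and between 3 and 6. The number called between fractions was 0 in each of 32 such fits. When 1 library of a group is left out, the remaining one is assumed to vary like the other groups. The design of 2 libraries per group limits what can be called.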
